A study of Mus musculus with 6 samples.

Results

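The 35 genes described here encode the enzymes and transporters of glycolysis and a set of transcripts that rise in most cells when oxygen is short. They were taken by symbol from the 24318 rows of a gene expression table of mouse liver, and all 35 had a row. The study measured whole liver RNA by paired-end sequencing in 6 libraries, 3 labelled KO and 3 labelled Cont. KO livers came from tamoxifen-treated mice and Cont livers from untreated mice, and both groups were C57BL/6 mice of the genotype VEcadCreERT2/TAK1flox/flox. These mice carry loxP-flanked alleles of Map3k7, which encodes the kinase TAK1, and a tamoxifen-activated Cre recombinase driven by the promoter of VE-cadherin, an adhesion molecule of endothelial cells. Loss of TAK1 and exposure to tamoxifen therefore cannot be told apart in any comparison. The sources used here state neither the age of the mice nor the dose of tamoxifen or the time after it. Labels call the libraries triplicates without naming animals, and the spread that p-values rest on may therefore be technical.

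Glycolysis splits glucose into pyruvate in the cytosol, and lactate dehydrogenase turns pyruvate into lactate where oxygen is limiting or flux is high. Hepatocytes carry liver forms of several steps (such as the glucose transporter Slc2a2 and the pyruvate kinase Pklr) and can run the pathway backwards to make glucose. Most other cells, leukocytes and endothelium among them, use widely expressed forms. The set studied here holds many of these, but also Pfkl, the liver form of phosphofructokinase, and forms of muscle, brain and myeloid cells. When oxygen falls, hypoxia-inducible factors escape hydroxylation and bind a short core in the promoters and enhancers of their targets, many of which are glycolytic genes. In whole tissue, fewer cells of a type and less RNA per cell cannot be told apart.

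The promoters of 4 genes are shown because Ankrd37 and Slc16a3 had the largest changes in the set, Ldha was its most abundant transcript and Bnip3 its most abundant member outside glycolysis. Sequences are from RefSeq on GRCm38.p6, on the strand of each gene, from 250 bases before to 50 bases after the annotated start. Capitals mark the core of the hypoxia response element, searched as ACGTG or GCGTG on both strands, so that CACGT and CACGC are the same letters on the other strand. A palindromic CACGTG, which other factors also bind, counts once on each strand. Ankrd37 lies at chr8:45999801-46000100 (minus strand), Slc16a3 at chr11:120948817-120949116 (plus strand), Bnip3 at chr7:138909457-138909756 (minus strand) and Ldha at chr7:46845554-46845853 (plus strand, the first of its 2 windows).
Ankrd37: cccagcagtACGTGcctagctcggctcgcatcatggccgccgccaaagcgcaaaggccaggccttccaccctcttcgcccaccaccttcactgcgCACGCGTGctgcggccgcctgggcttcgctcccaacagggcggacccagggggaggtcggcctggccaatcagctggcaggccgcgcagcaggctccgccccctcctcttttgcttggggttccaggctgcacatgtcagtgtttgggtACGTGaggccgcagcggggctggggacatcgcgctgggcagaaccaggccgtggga
Slc16a3: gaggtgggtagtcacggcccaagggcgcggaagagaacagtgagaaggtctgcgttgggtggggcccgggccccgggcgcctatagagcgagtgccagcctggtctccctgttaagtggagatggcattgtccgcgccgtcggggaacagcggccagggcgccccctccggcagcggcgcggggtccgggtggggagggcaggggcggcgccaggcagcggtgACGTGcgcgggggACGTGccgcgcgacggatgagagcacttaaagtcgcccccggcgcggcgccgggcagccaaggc
Bnip3: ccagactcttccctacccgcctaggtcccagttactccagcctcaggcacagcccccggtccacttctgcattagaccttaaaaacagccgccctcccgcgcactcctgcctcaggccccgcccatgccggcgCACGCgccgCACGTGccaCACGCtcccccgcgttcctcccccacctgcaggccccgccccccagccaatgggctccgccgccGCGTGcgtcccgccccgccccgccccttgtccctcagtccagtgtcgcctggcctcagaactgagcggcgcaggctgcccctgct
Ldha: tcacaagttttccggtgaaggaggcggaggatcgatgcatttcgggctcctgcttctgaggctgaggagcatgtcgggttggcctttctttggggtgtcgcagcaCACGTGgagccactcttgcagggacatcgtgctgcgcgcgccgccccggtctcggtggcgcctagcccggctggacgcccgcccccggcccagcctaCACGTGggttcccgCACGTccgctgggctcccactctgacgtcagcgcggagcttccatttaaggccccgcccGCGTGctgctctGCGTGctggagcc

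The core was found 4 times in the Ankrd37 window, 2 times in that of Slc16a3, 5 times in that of Bnip3 and 7 times in that of Ldha. Promoter windows were at hand for 30 of the 35 genes, Ero1l being matched under its present symbol Ero1a. Slc2a3, Bnip3l and Ndrg1 had none, and Pgm1 and Pgm2 were not matched because RefSeq lists each symbol as an older name of the other gene. Of the 47 windows of these 30 genes, 36 (76.6%) held at least 1 match. The share was 60.7% of the 11578 windows at hand for 9068 of the 11842 genes tested for change, and 43.8% of 32851 windows of all genes. The 30 genes include Gapdh, Eno2 and Car9, which were not tested. Among the members higher in KO livers, 22 of 29 windows (75.9%) held a match. A match describes letters in a window, and the data hold no measurement of binding.

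**Figure D1:**
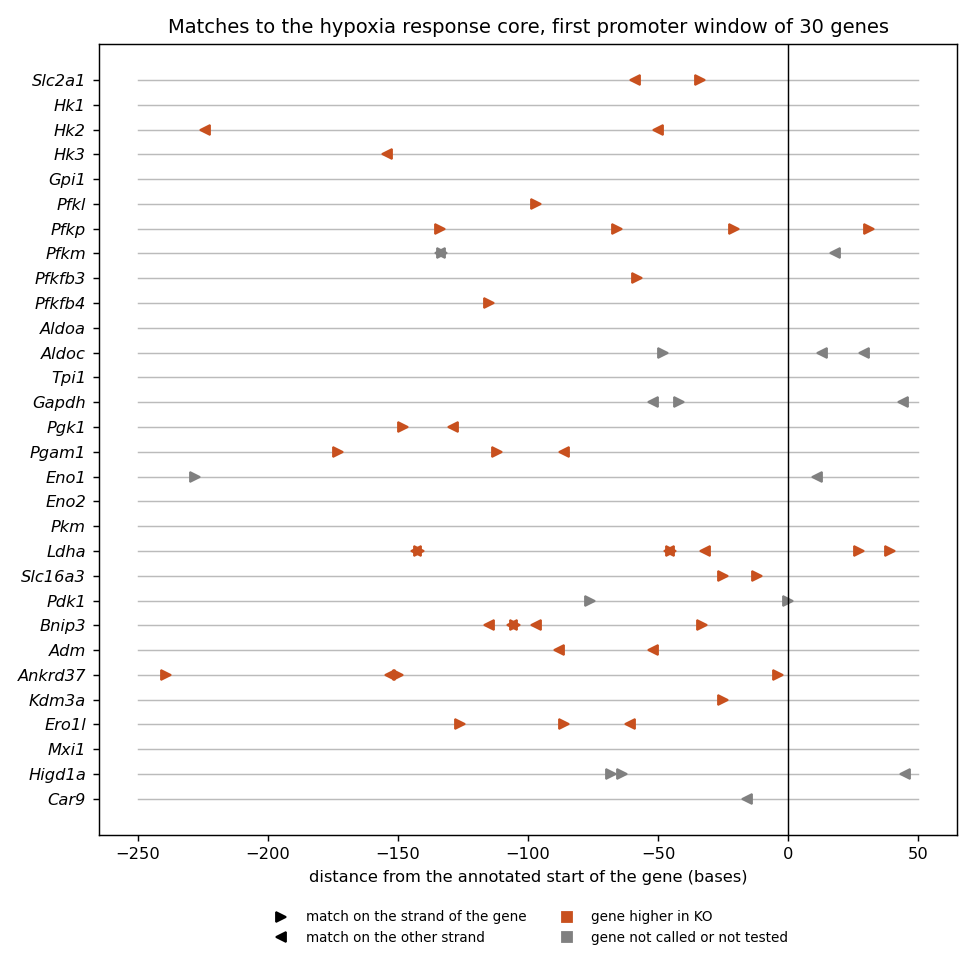
Matches to the hypoxia response core in the first promoter window of 30 genes, plotted by distance in bases from the annotated start (0), with triangles pointing right for matches on the strand of the gene and left for the other strand. Genes called higher in KO livers are in orange and the others in grey, and genes without a match in this window, such as Gpi1 and Tpi1, are empty lines.

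Values are FPKM, fragments scaled to transcript length and to a factor for each library, so levels can be compared between genes. Log2 fold changes of KO over Cont were taken after adding 0.5 FPKM, which makes those of low genes too small, and are given ± standard error. The limma test covered the 11842 genes whose 6 libraries averaged 0.5 FPKM or more, and calls were made below an adjusted p of 0.05 (Benjamini-Hochberg, over all of them). No read totals are given, and the spacing of low values put the relative depth of the other libraries at 0.921 to 1.08 times that of Cont1. That spacing also carries any scaling of the library. Map3k7 itself measured 9.28, 9.31 and 7.35 FPKM in KO livers and 8.498, 9.02 and 9.14 FPKM in Cont livers (log2 fold change -0.04 ± 0.16, limma adjusted p = 0.868). Other liver cells keep the gene, and a deletion of only some exons can leave countable RNA, so the labels cannot be checked from it.

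KO livers had more RNA of most of these genes, and limma called 0 members lower, with 0 lower also at an unadjusted p under 0.05. Of the 35, 24 were called higher, 8 were tested and not called, and 3 (Gapdh, Eno2 and Car9) were below the limit for testing. Over all genes tested, 14.1% were called higher and 13% lower. Every KO library lay above every Cont library for 27 of the 32 members tested, against 22.4% of all genes tested, and below for 0 members, against 21.1%. The median log2 fold change was 1.56 over the 32 members tested, beside -0.00071 over all genes tested. Over all genes it was 0.00071 after scaling by median ratio and -0.11 after rescaling to the same summed FPKM. A median near 0 over all genes thus depends on the scaling of the libraries. Because 5 members reached the limit only through their KO values (Slc2a3, Pfkfb4, Eno1, Slc16a3 and Ankrd37), the median was also taken over the 27 whose Cont mean reached it, where it was 1.41, with 20 called higher. Of these 5 members, all but Eno1 also count among those with every KO library above every Cont library. With each library rescaled to the same summed FPKM the same 24 members were called, while calls over all genes changed to 1356 higher and 2081 lower, against 1669 and 1534 as deposited.

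**Figure D2:**
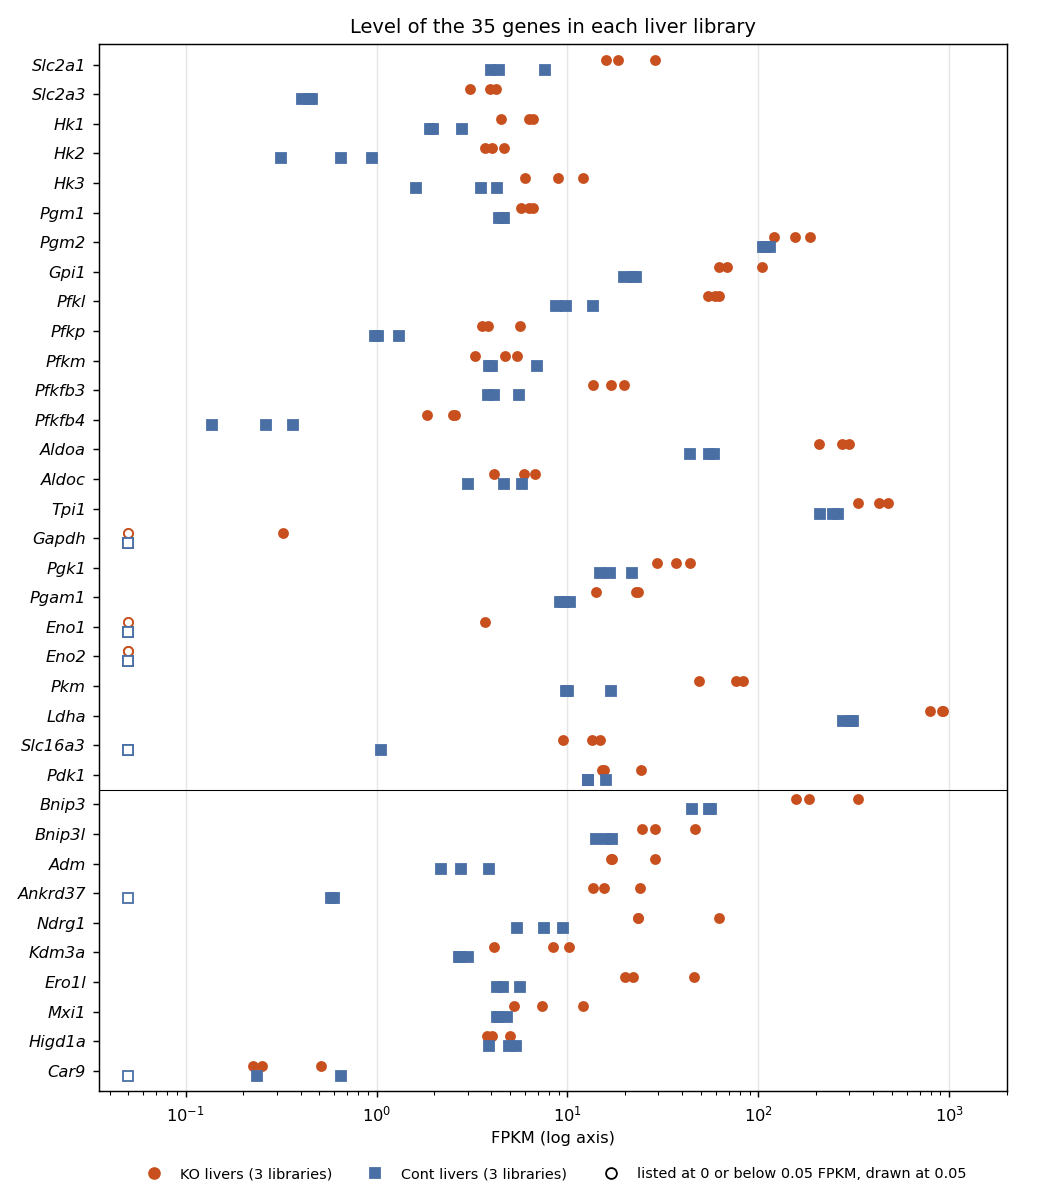
FPKM (log axis) of each of the 35 genes in the 3 KO libraries (orange circles, upper) and the 3 Cont libraries (blue squares, lower), with glycolytic genes above the line and hypoxia-induced genes below it. Open symbols at the left edge mark values listed at 0 or below 0.05 FPKM, which include Gapdh in all Cont libraries, and the 2 groups are apart for 27 genes.

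At the step of glucose entry, the widely expressed transporters rose and the liver form fell. Slc2a1, the basal glucose transporter of most cells, measured 15.9, 28.8 and 18.5 FPKM in KO livers and 4.38, 4.002 and 7.60 FPKM in Cont livers. All KO values lay above all Cont values, with a log2 fold change of 1.89 ± 0.28 (limma adjusted p = 0.00147). Slc2a3, the high-affinity transporter of neurons and leukocytes, measured 3.08, 3.91 and 4.22 FPKM in KO livers and 0.444, 0.461 and 0.409 FPKM in Cont livers (log2 fold change 2.17 ± 0.24, limma adjusted p = 3.75e-04). The liver transporter Slc2a2 was lower in KO livers, at 42.5, 72.7 and 49.9 FPKM, against 82.3, 83.2 and 91.3 FPKM in Cont livers (log2 fold change -0.67 ± 0.19, limma adjusted p = 0.0298). Its call was lost under 6 of 15 alternatives. These were the fit without a mean-variance trend (limma adjusted p = 0.0666) and leaving out any library other than KO2, with log2 fold changes of -0.70 to -0.50 and limma adjusted p of 0.0704 to 0.0954. Slc2a1 made up 25.9%, 27.3% and 25.4% of the summed FPKM of the 3 transporters in KO livers and 5.03%, 4.57% and 7.65% in Cont livers.

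All 3 low-Km hexokinases, which phosphorylate glucose on entry, rose. Hk2, the inducible form, measured 4.67, 3.70 and 4.02 FPKM in KO livers and 0.315, 0.654 and 0.943 FPKM in Cont livers (log2 fold change 2.06 ± 0.27, limma adjusted p = 8.53e-04). Hk1, the housekeeping form, measured 4.51, 6.31 and 6.64 FPKM in KO livers and 1.90, 1.97 and 2.82 FPKM in Cont livers (log2 fold change 1.21 ± 0.23, limma adjusted p = 0.0048). The groups were apart for both genes, most widely for Hk2. Hk3, a form found mainly in myeloid cells, measured 8.90, 5.98 and 12.0 FPKM in KO livers and 1.62, 4.28 and 3.53 FPKM in Cont livers (log2 fold change 1.41 ± 0.34, limma adjusted p = 0.0141), also without overlap.

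Phosphoglucomutase and glucose phosphate isomerase feed hexose phosphates into the pathway. Gpi1, the isomerase, measured 62.6, 104.6 and 68.6 FPKM in KO livers and 22.8, 22.2 and 19.9 FPKM in Cont livers (log2 fold change 1.80 ± 0.20, limma adjusted p = 3.28e-04). The phosphoglucomutases, which link glucose phosphate to glycogen, did not pass the test. The row named Pgm2 measured 120.3, 187 and 155 FPKM in KO livers and 109.5, 106 and 115 FPKM in Cont livers, and the row named Pgm1 5.70 to 6.64 FPKM in KO livers and 4.36 to 4.65 FPKM in Cont livers. The groups did not overlap for either (limma adjusted p = 0.0743 for Pgm2 and 0.105 for Pgm1).

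Phosphofructokinase commits sugar to glycolysis. Pfkl, the liver form and the most abundant of its 3 genes, measured 54.6, 62.4 and 59.2 FPKM in KO livers and 9.84, 8.74 and 13.6 FPKM in Cont livers. This log2 fold change of 2.42 ± 0.18 had the smallest limma adjusted p of the set (5.29e-05). Pfkp, the platelet form, measured 3.58, 5.62 and 3.82 FPKM in KO livers and 0.980, 1.02 and 1.30 FPKM in Cont livers (log2 fold change 1.58 ± 0.24, limma adjusted p = 0.00181). Pfkm, the muscle form, did not pass, at 3.27, 5.44 and 4.72 FPKM in KO livers and 3.88, 4.03 and 6.89 FPKM in Cont livers (log2 fold change -0.11 ± 0.27, limma adjusted p = 0.795). As a share of the summed FPKM of the 3 genes, Pfkm took 5.32% to 7.396% in KO livers and 26.4% to 31.7% in Cont livers.

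The bifunctional PFKFB enzymes make and remove the main activator of phosphofructokinase. Pfkfb3, a form with high kinase activity that is induced in proliferating and hypoxic cells, measured 19.7, 16.9 and 13.7 FPKM in KO livers and 3.84, 4.11 and 5.58 FPKM in Cont livers (log2 fold change 1.78 ± 0.20, limma adjusted p = 4.19e-04). Pfkfb4 measured 2.52, 1.83 and 2.58 FPKM in KO livers and 0.264, 0.137 and 0.365 FPKM in Cont livers (log2 fold change 1.90 ± 0.28, limma adjusted p = 0.00145). Pfkfb1, the liver form, was not called, at 14.2, 6.89 and 11.4 FPKM in KO livers and 15.8, 17.0 and 11.4 FPKM in Cont livers. Pfkfb3 was thus the most abundant of the 4 PFKFB genes in each KO library, with 44.6% to 58.7% of their sum, and Pfkfb1 in each Cont library, with 50.2% to 67.0%.

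The later steps of the pathway held the most abundant members. Aldoa, the aldolase of muscle and most other tissues, measured 207, 298 and 275 FPKM in KO livers and 44.0, 54.8 and 58.8 FPKM in Cont livers (log2 fold change 2.29 ± 0.18, limma adjusted p = 7.07e-05). Aldoc, the brain form, was not called, at 5.95, 4.12 and 6.74 FPKM in KO livers and 3.02, 5.75 and 4.64 FPKM in Cont livers. Tpi1, the triose phosphate isomerase, measured 334, 480.0 and 428 FPKM in KO livers and 263, 247 and 209.6 FPKM in Cont livers (log2 fold change 0.78 ± 0.17, limma adjusted p = 0.00913), the smallest change among the called members. Pgk1, the first enzyme of the pathway to yield ATP, measured 29.5, 44.1 and 37.0 FPKM in KO livers and 16.8, 21.7 and 14.8 FPKM in Cont livers (log2 fold change 1.03 ± 0.19, limma adjusted p = 0.00456). Pgam1, the phosphoglycerate mutase, measured 14.1, 23.3 and 22.8 FPKM in KO livers and 9.63, 10.3 and 9.13 FPKM in Cont livers (log2 fold change 0.98 ± 0.21, limma adjusted p = 0.00742). The groups were apart for Tpi1, Pgk1 and Pgam1, by less than for Aldoa.

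Glyceraldehyde phosphate dehydrogenase and enolase could not be read from the table. Gapdh, which every cell uses, was listed at 0.324, 0 and 0 FPKM in KO livers and at 0 in all Cont livers. Eno1, the common enolase, was listed at 0, 0 and 3.68 FPKM in KO livers and at 0, 0 and 3.7e-04 FPKM in Cont livers, and Eno2, the neuronal form, at 0 in all 6 libraries. Zeros for such genes are possible failed estimates, and copies of Gapdh and Eno1 elsewhere in the genome can share their reads, so no change is read for these steps. Eno1 still reached the limit for testing, through KO3 alone. It counts among the 32 members tested and is drawn with them (log2 fold change 1.02 ± 0.74, limma adjusted p = 0.348, not called). Car9, a surface carbonic anhydrase that hypoxia induces in many cells, was at 0.226, 0.252 and 0.511 FPKM in KO livers and 0.235, 0 and 0.652 FPKM in Cont livers, too low to be tested.

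At the step of pyruvate kinase the widely expressed form rose and the liver form fell, and lactate dehydrogenase and an exporter of lactate rose too. Pkm, the form of muscle and most non-hepatic cells, measured 49.0, 83.5 and 76.4 FPKM in KO livers and 9.86, 10.0 and 16.8 FPKM in Cont livers (log2 fold change 2.47 ± 0.25, limma adjusted p = 2.63e-04). Pklr, the liver form, fell, at 18.0, 31.2 and 21.8 FPKM in KO livers and 46.0, 40.9 and 47.9 FPKM in Cont livers (log2 fold change -0.94 ± 0.20, limma adjusted p = 0.00766). Pkm was the more abundant of the pair in every KO library and Pklr in every Cont library. Ldha, which makes lactate, measured 793, 923 and 915 FPKM in KO livers and 314, 305 and 279 FPKM in Cont livers (log2 fold change 1.55 ± 0.14, limma adjusted p = 1.43e-04). Slc16a3, the transporter through which glycolytic cells export lactate, measured 9.47, 13.4 and 14.8 FPKM in KO livers and 0, 0 and 1.05 FPKM in Cont livers, with a log2 fold change of 4.14 ± 0.43 (limma adjusted p = 2.63e-04). Pdk1, a kinase that shuts pyruvate out of the mitochondrion, did not pass, at 15.6, 24.2 and 15.2 FPKM in KO livers and 12.8, 15.9 and 12.7 FPKM in Cont livers (limma adjusted p = 0.215).

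**Figure D3:**
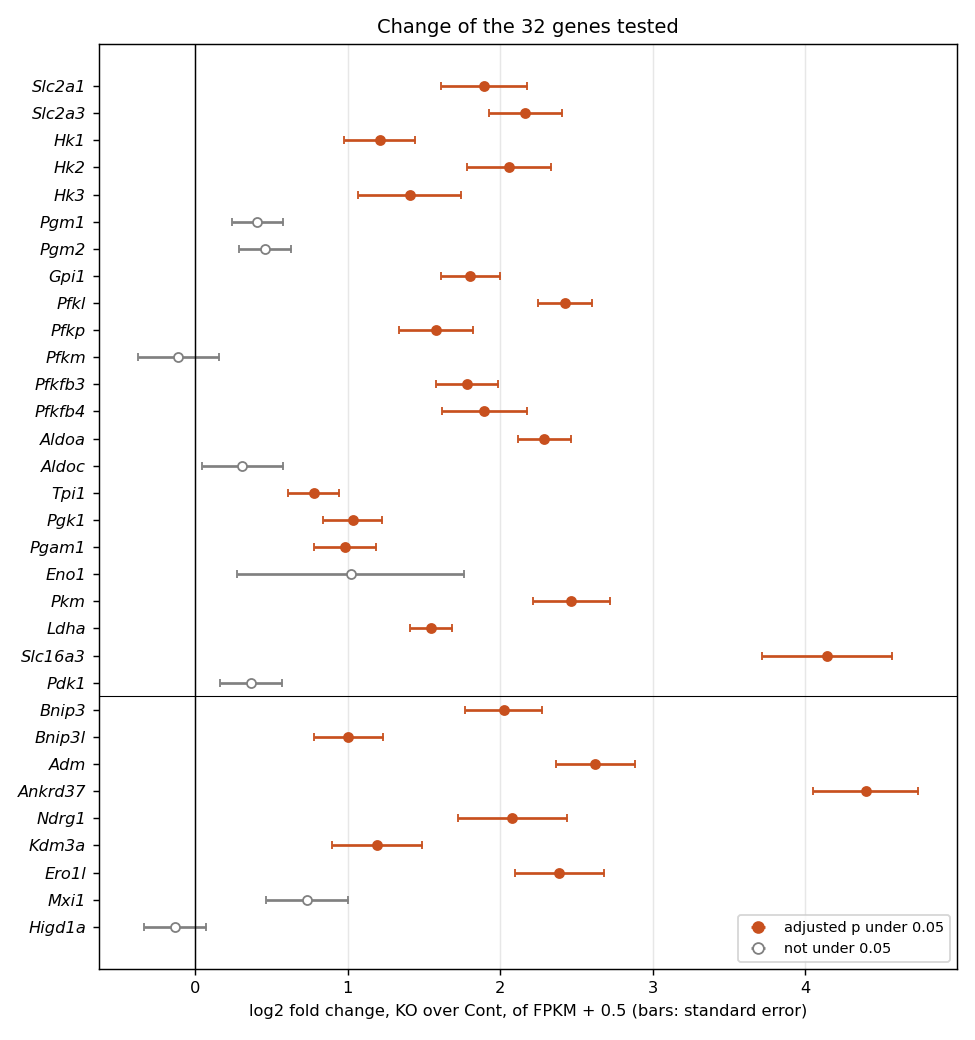
Log2 fold change of KO over Cont of FPKM + 0.5 for the 32 genes tested, with bars for the standard error, glycolytic genes above the line and hypoxia-induced genes below it. Filled symbols mark the 24 genes with a limma adjusted p under 0.05, which all lie to the right of 0, with Ankrd37 at 4.40 and Slc16a3 at 4.14 farthest from it. Both of the latter reached the limit for testing only through their KO values.

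The balance between forms at a step was compared as a log2 ratio within each library, which no scaling of the library changes beyond the 0.5 FPKM added to each side. The KO mean minus the Cont mean was 3.41 for Pkm over Pklr (1.54 ± 0.21 in KO livers and -1.87 ± 0.35 in Cont livers, SD, n = 3 each, exact two-sided permutation p = 0.1). It was 2.56 for Slc2a1 over Slc2a2, 2.25 for Pfkfb3 over Pfkfb1, 0.85 for Hk2 over Hk1 and -0.84 for Pfkp over Pfkl, each with the same exact permutation p. For these 5 ratios the groups did not overlap, and 0.1 is the smallest p that 3 libraries against 3 allow, so none could pass 0.05 (0.129 after Benjamini-Hochberg adjustment over the 9 exact permutation tests run). Hk3 over Hk1 (0.20, exact permutation p = 0.8) and Ldha over Ldhb (1.62, exact permutation p = 0.2, with Ldhb listed at 0 in KO1 and Cont2) overlapped between groups.

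As shares of a step, Pkm made up 73.2%, 72.8% and 77.8% of pyruvate kinase FPKM in KO livers and 17.7%, 19.7% and 26.0% in Cont livers. Summed over its 3 forms, phosphofructokinase averaged 67.6 ± 6.03 FPKM in KO livers and 16.7 ± 4.36 FPKM in Cont livers (SD, n = 3 each, sum not tested).

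**Figure D4:**
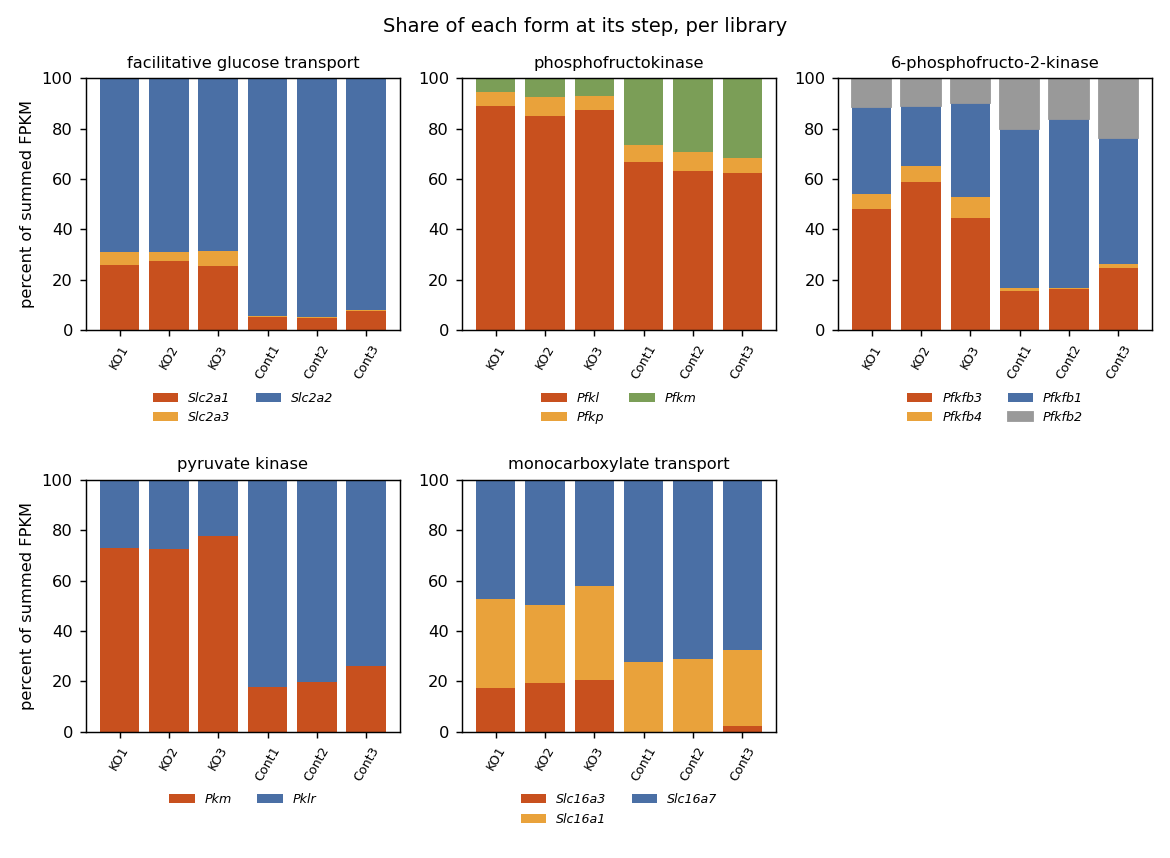
Percent of the summed FPKM of the forms of each step in each library, KO libraries at the left and Cont libraries at the right of each panel, with forms stacked as in the legend of the panel. Pkm takes 72.8% to 77.8% in KO libraries and 17.7% to 26.0% in Cont libraries, and Pfkm, the top layer of the phosphofructokinase panel, is thinner in the KO libraries.

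Among the 10 hypoxia-induced members outside the glycolytic pathway, 7 were called higher, beside 14.1% of all genes tested. Of these 7, Ankrd37 reached the limit for testing only through its KO values. Ankrd37, an ankyrin repeat protein gene with a strong hypoxia response, measured 23.9, 13.6 and 15.6 FPKM in KO livers and 0.576, 0.599 and 0 FPKM in Cont livers (log2 fold change 4.40 ± 0.34, limma adjusted p = 7.55e-05). Adm, which encodes the vasodilator peptide adrenomedullin, measured 17.1, 28.7 and 17.0 FPKM in KO livers and 2.79, 2.17 and 3.86 FPKM in Cont livers (log2 fold change 2.62 ± 0.26, limma adjusted p = 2.25e-04). For both genes the lowest KO library was several times the highest Cont library.

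Ero1l, an oxidase for disulfide formation in the endoplasmic reticulum, measured 22.2, 45.9 and 20.0 FPKM in KO livers and 4.26, 4.62 and 5.66 FPKM in Cont livers (log2 fold change 2.39 ± 0.29, limma adjusted p = 5.69e-04). Ndrg1, a stress-responsive gene of differentiated cells, measured 23.6, 62.0 and 23.5 FPKM in KO livers and 9.44, 5.46 and 7.56 FPKM in Cont livers (log2 fold change 2.08 ± 0.36, limma adjusted p = 0.00296). The KO mean of Ndrg1 was 36.3 FPKM, and 23.5 FPKM without KO2. The mitophagy receptor Bnip3 measured 158, 333 and 185 FPKM in KO livers and 56.9, 55.2 and 45.2 FPKM in Cont livers (log2 fold change 2.02 ± 0.25, limma adjusted p = 6.59e-04). Its relative Bnip3l measured 28.8, 46.4 and 24.6 FPKM in KO livers and 14.1, 17.1 and 16.1 FPKM in Cont livers (log2 fold change 1.005 ± 0.23, limma adjusted p = 0.0102). KO2 was the highest library for each of these 4 genes.

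The weakest call was that of Kdm3a, a histone demethylase induced by hypoxia, at 8.37, 10.2 and 4.11 FPKM in KO livers and 2.71, 2.997 and 2.74 FPKM in Cont livers (log2 fold change 1.19 ± 0.30, limma adjusted p = 0.016). It was lost without KO1 (log2 fold change 1.08, limma adjusted p = 0.0595) and without KO2 (0.95, limma adjusted p = 0.0517). Mxi1, an antagonist of MYC, measured 7.398, 12.0 and 5.26 FPKM in KO livers and 4.36, 4.30 and 4.82 FPKM in Cont livers. Its groups did not overlap but it was not called (log2 fold change 0.73 ± 0.27, limma adjusted p = 0.0723). Higd1a, a mitochondrial protein of the hypoxia response, measured 3.80, 5.02 and 4.03 FPKM in KO livers and 4.95, 5.39 and 3.88 FPKM in Cont livers, and was not called either (log2 fold change -0.13 ± 0.20, limma adjusted p = 0.679).

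The KO libraries differed among themselves in these genes. Of the 24 called members, 16 were highest in KO2, 3 in KO1 and 5 in KO3, while over all 1669 genes called higher KO2 was the highest library for 40.7%. For 9 of the called members KO2 exceeded the mean of KO1 and KO3 by over 1.5 times: Slc2a1, Gpi1, Pfkp, Bnip3, Bnip3l, Adm, Ndrg1, Kdm3a and Ero1l. Of the members not called, Pdk1 (1.57) and Mxi1 (1.90) did so too. No share above 1.5 was computed over the 1669 genes called higher, so this ratio is not read as particular to these members. The ratio reached 2.63 for Ndrg1 and 2.18 for Ero1l, and was 0.572 for Hk3 and 0.686 for Ankrd37. Without KO2, 23 members were still called higher.

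A further list held 29 other hypoxia-induced genes. Of the 27 tested, 19 were called higher by limma and 0 lower, beside 14.1% and 13% of all genes tested. At an unadjusted p under 0.05, 0 were lower too. The median log2 fold change was 1.05 beside -0.00071 over all genes tested. Lox reached the limit for testing only through its KO values, and without it 18 of 26 were called higher, with a median of 1.04. Cited2, a feedback inhibitor of hypoxia-inducible factors, had 77.0, 169.9 and 70.6 FPKM in KO livers and 10.5, 10.7 and 9.73 FPKM in Cont livers (log2 fold change 3.18 ± 0.29, limma adjusted p = 1.72e-04). The matrix cross-linking oxidase Lox had 2.99, 5.11 and 5.93 FPKM in KO livers and 0, 0 and 0.720 FPKM in Cont livers. Hilpda, a lipid droplet protein, had 12.5, 51.6 and 12.4 FPKM in KO livers and 4.15, 4.85 and 1.92 FPKM in Cont livers (log2 fold change 2.39 ± 0.52, and 1.72 without KO2), and Ddit4, an inhibitor of mTOR signalling, had 81.1, 141.8 and 60.4 FPKM in KO livers and 16.7, 16.2 and 22.1 FPKM in Cont livers. As with Ndrg1, KO2 was the highest library for Cited2, Hilpda and Ddit4. P4ha2, which encodes a collagen prolyl hydroxylase subunit and was also highest in KO2, had 11.5, 28.6 and 12.3 FPKM in KO livers and 3.2, 3.11 and 3.32 FPKM in Cont livers (log2 fold change 2.15 ± 0.31, limma adjusted p = 0.00131).

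Among 10 genes of the factors and their regulators, 8 were tested and 4 were called higher, beside 14.1% of all genes tested. Of these 4, Egln1 and Egln3 are also among the 19 called in the preceding list. The 4 were the prolyl hydroxylases Egln3 (log2 fold change 1.97 ± 0.18, limma adjusted p = 1.67e-04) and Egln1 (0.84 ± 0.17, limma adjusted p = 0.00562), which mark the factors for degradation and are themselves induced by hypoxia, the partner subunit Arnt (0.98 ± 0.18, limma adjusted p = 0.00398) and the ubiquitin ligase subunit Vhl (0.61 ± 0.19, limma adjusted p = 0.0425). The call of Vhl was lost under 8 of 15 alternatives. Hif1a, chosen after its value was seen, measured 8.76, 7.92 and 8.55 FPKM in KO livers and 9.62, 8.55 and 12.5 FPKM in Cont livers (limma adjusted p = 0.339). The activity of these factors is set mainly at the protein level, which was not measured.

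The opposing pathway of glucose production was lower at its last step. G6pc, the phosphatase that releases glucose, measured 12.1, 24.5 and 37.7 FPKM in KO livers and 129, 95.0 and 109.6 FPKM in Cont livers (log2 fold change -2.28 ± 0.34, limma adjusted p = 0.00155). Pck1, the cytosolic enzyme that makes phosphoenolpyruvate, averaged 648 ± 210.4 FPKM in KO livers and 1288 ± 139 FPKM in Cont livers (SD, n = 3 each; limma adjusted p = 0.0101), and the malate dehydrogenase Mdh1 averaged 182 ± 14.8 FPKM in KO livers and 361 ± 48.3 FPKM in Cont livers (limma adjusted p = 0.00157). Of 7 genes in this list, 3 fell and 2 rose, beside 13% called lower and 14.1% higher over all genes tested. Those that rose were pyruvate carboxylase, Pcx (log2 fold change 0.69 ± 0.16), whose call was lost without Cont2, and the mitochondrial Pck2 (0.99 ± 0.25), whose call was lost without Cont2 or KO2. Of 10 genes of glycogen and the pentose phosphate pathway, 3 rose and 1 fell, beside the same shares over all genes tested. Under 5 of 15 alternatives only 1 of the 10 was called higher. G6pdx, the entry enzyme of the pentose phosphate pathway, rose to 14.2, 12.5 and 15.9 FPKM in KO livers, against 2.75, 3.39 and 7.78 FPKM in Cont livers (log2 fold change 1.63 ± 0.32, limma adjusted p = 0.00515). The Cont mean of G6pdx was 4.64 FPKM, and 3.07 FPKM without Cont3. Gys2, the liver glycogen synthase, fell (log2 fold change -0.80 ± 0.20, limma adjusted p = 0.0157), a call lost without Cont2. Pgd and H6pd were called higher by a small margin (log2 fold changes of 0.54 and 0.46), and their calls were lost under 6 and 8 of 15 alternatives. Among 14 liver forms and partner enzymes, 2 fell, 1 rose and 11 were not called, near the 13% called lower and 14.1% higher over all genes tested. Pklr and Slc2a2 fell. The lactate and pyruvate transporter Slc16a1 rose (log2 fold change 0.64 ± 0.16, limma adjusted p = 0.0179), a call lost without Cont1, Cont2 or KO3.

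**Figure D5:**
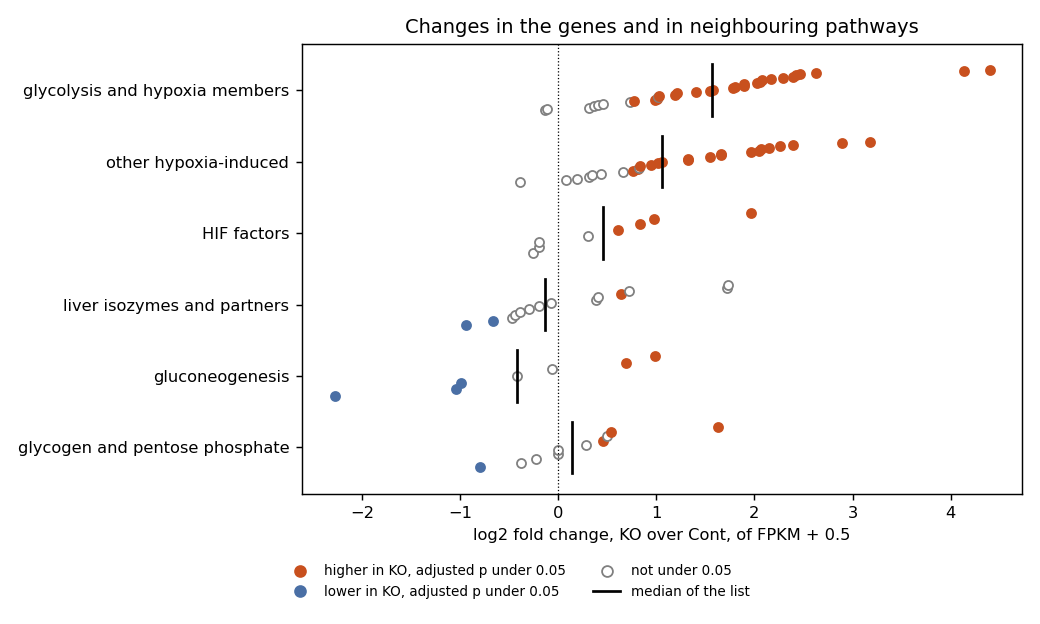
Log2 fold change of KO over Cont of FPKM + 0.5 for each tested gene of 6 lists, 1 point per gene, with orange for genes called higher, blue for genes called lower, open symbols for genes not called and a black line at the median of the list. The median is 1.56 for the 32 members tested and 1.05 for the 27 other hypoxia-induced genes, and every gene called lower among the 6 lists belongs to the liver forms, gluconeogenesis or the glycogen and pentose phosphate list.

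Markers of other cells differed between the same libraries, and leukocytes, endothelium and hepatocytes all use some of the genes above. Some markers reached the limit for testing only through their KO values, and counts without them are given beside the full ones. For comparison, 14.1% of all genes tested were called higher and 13% lower. All 14 neutrophil markers in the table were called higher (9 of 9 whose Cont mean reached the limit). Their summed level was 5250 to 6802 FPKM in KO livers and 217 to 420 FPKM in Cont livers. Most of this sum in every library was Lcn2, at 3697, 3478 and 5047 FPKM in KO livers and 180, 201 and 340 FPKM in Cont livers. Of 15 monocyte and macrophage markers 11 were called higher (9 of 13 whose Cont mean reached the limit). Their sums were 1274 to 1365 FPKM in KO livers and 433 to 956 FPKM in Cont livers, where Cont3 was the highest. Of 15 endothelial markers 11 were called lower, with sums of 79.2 to 85.7 FPKM in KO livers and 212 to 315 FPKM in Cont livers. The 4 not called were Pecam1, Cdh5, Stab2 and Eng, with log2 fold changes of -0.21, 0.28, 0.32 and -0.39, so the fall did not extend to every marker. Clec4g alone measured 0.381, 0 and 0 FPKM in KO livers and 44.4, 63.8 and 56.5 FPKM in Cont livers. Hepatocyte markers summed to 15974 to 17332 FPKM in KO livers and 19204.5 to 25109 FPKM in Cont livers, with 5 of 11 called lower and 1 higher. The higher call and 1 of the lower calls were each lost under 8 of 15 alternatives, with any 1 library left out among them. Of 10 stellate cell and fibroblast markers 8 were called higher. Of 11 lymphocyte markers 9 were tested and 5 called higher (3 of 6 whose Cont mean reached the limit), with Cd8a at 0 in all Cont libraries. Of 11 erythroid markers 5 were called higher, and 3 of 8 whose Cont mean reached the limit. The median log2 fold change was 0.08 over those 8, against 1.06 over all 11. Hba-a1 measured 0.221, 0.611 and 313 FPKM in KO livers and 42.8 to 81.8 FPKM in Cont livers. Hba-a2 measured 119, 238 and 0.105 FPKM in KO livers and 0.0946 to 0.105 FPKM in Cont livers. Both rows are possible failed estimates. Hba-a1 counts in both medians and Hba-a2 only in that over all 11, so the difference between the medians is not read. Of 6 bile duct markers, with Cftr at 0 in all Cont libraries, 1 was called higher, which reached the limit only through its KO values, and 1 lower, a call lost under 7 of 15 alternatives. Skeletal muscle markers were at or near 0, their 6 genes summing to at most 0.445 FPKM in KO livers and 0.723 FPKM in Cont livers. The part of changed cell numbers in the values of the glycolytic and hypoxia-induced genes was not tested.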

How the data were processed

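Whole liver RNA was measured in 6 libraries, 3 KO and 3 Cont, grouped by title. The kit was TruSeq Sample Prep v2, with paired-end reads, per the labels' protocols. The submitters' processing notes name Trimmomatic 0.33, TopHat2 2.1.0, Cuffdiff 2.2.1, Cuffnorm 2.2.1 and the build mm9, and no gene annotation was named in what was used here. The authors deposited FPKM values, 1 column per library, and these were used as they stand. Alb, at 0 in all Cont libraries, was left out as a possible failed estimate.

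Of the 24318 rows, 8986 were at 0 in every library. Log2(FPKM + 0.5) was fitted with limma 3.58.1 in R 4.3.3 (mean-variance trend, two-sided, Benjamini-Hochberg adjustment over 11842 genes), after the fit had been tested on simulated data. Without counts, no counting interval can be given. Relative depth was read from ratios of low values, of which 84.6% to 87.2% lay within 0.01 log2 units of whole steps of up to 4 fragments. Spearman correlations were 0.951 to 0.971 within groups and 0.868 to 0.910 between them.

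The members and lists were chosen with earlier results of these data known. Full values were to be given for called members, and at most 5 called genes with the largest change for each neighbouring list. Some genes of the neighbouring lists, with their ratios and shares, are not reported here. Of the markers, 3 had no row under the symbol used. Promoter sequences are RefSeq's on GRCm38.p6, not the authors' build. Isozyme ratios were tested by exact permutation. Alternatives were other scalings, pseudocounts, filters and variance models, the replicate number as a block, and leaving out single libraries.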

Additional observations from a re-analysis of the deposited data

How the results depend on the processing

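The number of members called higher was 24 under each of the 9 alternatives run with all 6 libraries and 23 to 25 when 1 library was left out, and the number called lower was 0 in each. Of 478 log2 fold changes of the 32 tested members under 15 alternatives, 472 kept their direction and side of the threshold. The exceptions all came from leaving out 1 library: Kdm3a lost its call, Mxi1 (log2 fold change 0.997 without KO3) and Pgm2 (0.62 without KO1) gained one, and Pfkm, which was never called, ranged from -0.25 to 0.13 and changed sign. Genes called higher over the whole table numbered 1186 to 1644 without 1 library, and genes called lower 943 to 1497, with 996 without Cont1 and 943 without Cont2. The cause was not tested. Rescaling to the same total gave medians of -0.11 over all genes and 1.46 over the tested members (log2 fold change). The Hk3 over Hk1 difference ranged from -0.0671 to 0.51 without 1 library, and the other ratios given here kept their direction under every alternative run. With replicate number as a block, 24 members were called higher, as were 1575 genes in all, with 1385 lower. Same-numbered KO and Cont libraries did not deviate together (correlations of -0.010, -0.00012 and 0.0015 over genes), and KO1 correlated best with Cont2 (0.037). These correlations showed no pairing by number, but with 3 libraries in each group they cannot exclude one. Read depth is unknown, which limits what can be said of members near or below 0.5 FPKM, such as Car9.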
